A study of Mus musculus with 12 samples.

Results

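The BCL2 family decides in large part whether a cell keeps its mitochondrial outer membrane intact or dies by the intrinsic (mitochondrial) route of apoptosis. Its anti-apoptotic proteins, among them BCL-xL (encoded by Bcl2l1), MCL1 and BCL2, hold the effectors BAX and BAK in check, and the BH3-only proteins BAD, BID and BIM (encoded by Bcl2l11) relay death signals to both. Blood cells are known to depend on different members. Late red cell precursors and platelets rely on BCL-xL, neutrophils on MCL1, and circulating lymphocytes on BCL2 and MCL1 with BIM as the opposing signal.

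The 8 genes Bcl2l1, Mcl1, Bcl2, Bax, Bak1, Bad, Bid and Bcl2l11 were followed in whole blood of 3 Pik3cg-/- and 3 WT mice. All probes whose annotated gene symbol was one of these 8 were taken, which gave 22 of the 45281 probes of the array; 7 of the 8 are among the 19057 genes that the annotation names. The mice were females of 13 to 16 weeks on the same breeder diet, and no group was treated. The Pik3cg-/- mice carry the germline allele B6J;129-Pik3cg tm1Pngr and lack the catalytic subunit of phosphoinositide 3-kinase gamma in all cells. The line was backcrossed to C57BL/6J Jax over several generations and then kept as a closed colony, and the WT mice were C57BL/6J Jax and are not described as littermates. Blood came from the retro-orbital sinus. The RNA of each mouse was labelled in duplicate, which gave 12 arrays, and the 2 technical arrays of a mouse were averaged, so that n = 3 mice in each group throughout. Intensities are given on a log2 scale after background correction and quantile normalization. A probe was kept if it was detected (detection p under 0.01) on at least 3 of the 12 arrays.

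As a whole the arrays detected between 3558 and 5511 probes each, and both arrays of Pik3cg-/- mouse C (3558 and 3696 probes) lay below the other 10 arrays, which detected at least 4176. Of 5498 kept probes, 150 (2.73%) differed between the genotypes at an adjusted p under 0.05 (limma, Benjamini-Hochberg adjustment over all kept probes), 79 higher and 71 lower in Pik3cg-/- blood, and 1157 (21%) had an unadjusted p under 0.05. In 1530 kept probes (27.8%) the mice of the 2 genotypes did not overlap. The targeted gene was dim. Probe ILMN_1227086 of Pik3cg passed detection on 2 WT and 2 Pik3cg-/- arrays (6.94 ± 0.21 in WT and 7.20 ± 0.24 in Pik3cg-/- mice, SD, n = 3, adjusted p = 0.469 from limma), and the other, ILMN_2564205, on no array. The sources used here do not place either probe relative to the disrupted part of Pik3cg, so these values do not check the genotype labels.

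Of the 8 genes, 5 gave a kept probe in whole blood. Bcl2l1 had 3 kept probes, Bid 2, and Mcl1, Bcl2 and Bcl2l11 1 each, 8 probes in all. None of the 8 passed an adjusted p of 0.05 in limma, against 2.73% of all kept probes. In limma 3 of them had an unadjusted p under 0.05, against 21% of all kept probes. None passed in the methods' analysis of variance with the same adjustment, where only 3 of all 5498 kept probes passed, so that count says little. Over all kept probes 46.6% had a higher mean in Pik3cg-/- mice, and the median log2 fold change was −0.02. Of the 8 probes, 7 had a higher mean in Pik3cg-/- mice and 1 a lower one, with a median log2 fold change of 0.45. When arrays were scaled to a common 75th percentile instead, the median of all probes moved to −0.19, that of the 8 to 0.31, and 5 were higher and 3 lower. The median of the 8 was 0.21 without Pik3cg-/- mouse A, 0.63 without mouse C and 0.20 in the authors' log2 values. All 3 Bcl2l1 probes are among the higher ones, so this median rests in part on 1 gene measured several times. Of these 3, ILMN_2647885 was kept only through the knockout arrays. The genotypes did not overlap for 1 of the 8 probes, a Bid probe that was lower in all Pik3cg-/- mice, against 27.8% of all kept probes.

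**Figure D1:**
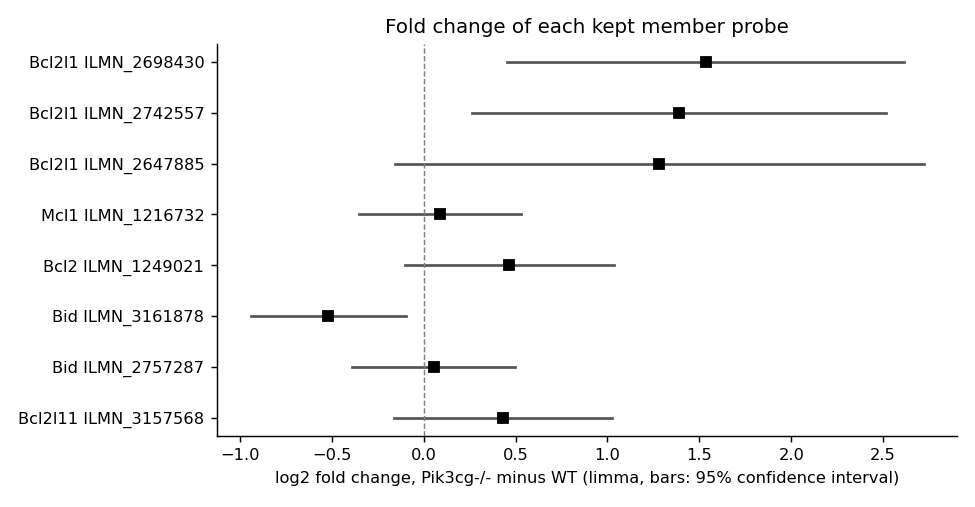
Log2 fold change of the 8 kept probes of the BCL2 family genes (x axis, Pik3cg-/- minus WT, n = 3 mice in each group; squares are limma estimates and bars 95% confidence intervals). The 3 Bcl2l1 probes lie between 1.28 and 1.53 with wide intervals, and the other 5 lie between −0.52 and 0.47.

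The largest differences among these genes were those of Bcl2l1, whose product BCL-xL protects late red cell precursors and sets the lifespan of platelets. Its brightest probe, ILMN_2698430, was detected on all 12 arrays. It read 7.77, 8.57 and 7.99 in WT mice A, B and C and 8.50, 9.86 and 10.58 in Pik3cg-/- mice A, B and C. Mice B and C of the knockout group lay above every WT mouse, and mouse A lay inside the WT range. The means were 8.11 ± 0.41 and 9.65 ± 1.06 (SD, n = 3), a log2 fold change of 1.53 (SE 0.47, 95% confidence interval 0.46 to 2.61; adjusted p = 0.123 from limma), or 2.90-fold. The knockout mice thus spread more widely than the WT mice. The spread between the knockout mice was wider than that between the 2 arrays of a mouse, which gave 8.69 and 8.31 in knockout mouse A, 9.99 and 9.72 in mouse B and 10.58 and 10.58 in mouse C.

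Of the other Bcl2l1 probes, ILMN_2742557 read 6.47, 7.11 and 7.07 in the WT mice and 7.01, 8.60 and 9.20 in the Pik3cg-/- mice, with a log2 fold change of 1.39 (SE 0.49, 95% confidence interval 0.26 to 2.52; adjusted p = 0.162 from limma). ILMN_2647885 read 6.53, 6.94 and 6.62 against 6.33, 8.25 and 9.36, with a log2 fold change of 1.28 (SE 0.63, 95% confidence interval −0.16 to 2.72; adjusted p = 0.285 from limma). For both probes knockout mice B and C again stood above all WT mice and mouse A did not. Both were near the detection limit in WT blood. ILMN_2742557 was detected on 3 of 6 WT and 5 of 6 Pik3cg-/- arrays, and ILMN_2647885 on 1 of 6 and 5 of 6. ILMN_2647885 was thus kept only through the group in which it is higher, and its values are given as a description that supports nothing about the other probes. The remaining probe, ILMN_1255430, which is annotated to a separate cDNA record while the 3 kept probes share 1 RefSeq transcript record, was detected on no array.

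**Figure D2:**
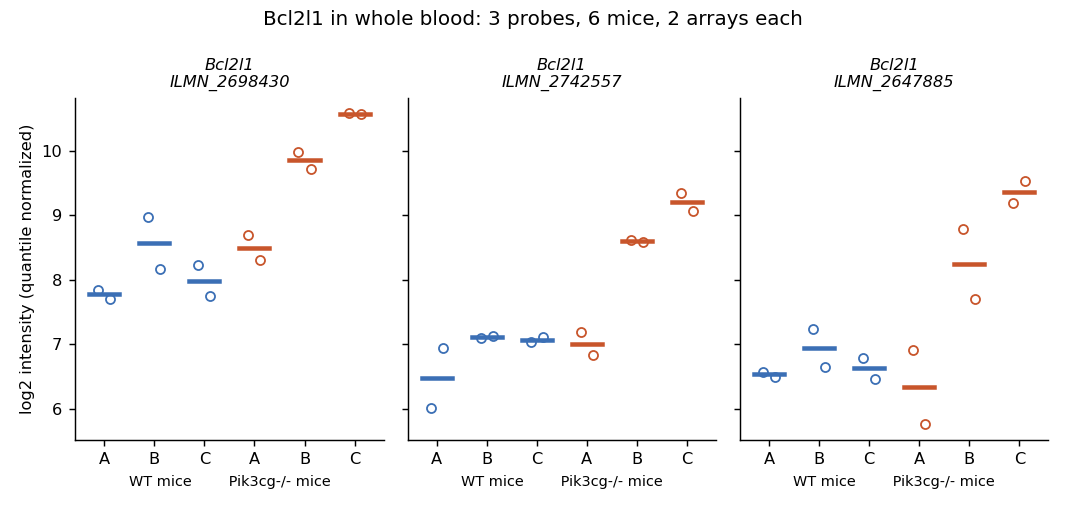
Log2 intensity of the 3 kept Bcl2l1 probes in each mouse (y axis; open circles are the 2 technical arrays, bars their mean; WT blue, Pik3cg-/- orange). In every panel Pik3cg-/- mice B and C lie above all WT mice while mouse A does not; for the brightest probe the mouse means run from 7.77 to 10.58.

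Whether the probes of 1 gene changed to the same extent was asked of the difference between the brightest probe and each other kept probe, taken within each mouse. Over all genes this gave 793 probe pairs of 673 genes, of which 5 (0.631%) changed unequally at an adjusted p under 0.05 (limma), 103 had an unadjusted p under 0.05, and 172 (21.7%) had estimates of opposite sign. For Bcl2l1, ILMN_2698430 exceeded ILMN_2742557 by 1.30, 1.47 and 0.92 in the WT and by 1.49, 1.25 and 1.38 in the Pik3cg-/- mice. The unequal change was 0.15 (95% confidence interval −0.27 to 0.56; adjusted p = 0.858 from limma; exact two-sided permutation p = 0.6, where 3 against 3 mice cannot go below 0.1). Against ILMN_2647885 it was 0.25 (95% confidence interval −0.36 to 0.86, adjusted p = 0.835 from limma, exact two-sided permutation p = 0.7). That probe was kept only through the knockout arrays, so this value is a description. Over the 6 mice the 3 probes correlated with Pearson's r between 0.96 and 0.98 (Spearman's rho 0.83 to 0.94), a description over mice whose probes share their RNA and arrays. The mean of the 3 probes had a log2 fold change of 1.40 (SE 0.51, adjusted p = 0.155 from limma). It includes ILMN_2647885, kept only through the knockout arrays, and is given as a description.

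Leaving out 1 mouse changed the call for Bcl2l1. Without Pik3cg-/- mouse A, ILMN_2698430 and ILMN_2742557 passed with log2 fold changes of 2.11 and 2.02 (adjusted p = 0.00786 and 0.00556 from limma). ILMN_2647885, kept through the knockout arrays, was then at 2.11 (adjusted p = 0.0105 from limma). In that setting 344 of all 5498 kept probes passed. Without Pik3cg-/- mouse C the 3 probes were at 1.07, 0.92 and 0.59, none past the threshold, and this is the mouse whose arrays detected the fewest probes. Over all alternatives the direction of the 3 probes stayed the same, and the adjusted p of the brightest ranged from 0.00152 to 0.397. The low end came from array quality weights, whose estimation did not converge and where 1761 of all 5498 kept probes passed. In the authors' log2 values the log2 fold change of the brightest probe was 1.00 (adjusted p = 0.149 from limma).

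Mcl1, which encodes the short-lived protector on which neutrophils depend, had 1 probe, ILMN_1216732, and it was detected on all 12 arrays. It read 10.97, 10.92 and 11.13 in WT and 11.37, 11.16 and 10.76 in Pik3cg-/- mice. The knockout mice held both the highest and the lowest value, and the groups overlapped. The means were 11.01 ± 0.11 and 11.10 ± 0.31 (SD, n = 3) and the log2 fold change was 0.09 (SE 0.19, 95% confidence interval −0.35 to 0.53; adjusted p = 0.830 from limma). Its sign turned to −0.11 with scaling to the 75th percentile.

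Bcl2, the founding member of the family and a survival factor of resting lymphocytes, was covered by 9 probes, of which only ILMN_1249021 was kept. It read 7.76, 7.91 and 7.54 in WT and 8.73, 8.10 and 7.78 in Pik3cg-/- mice. Here knockout mouse A was highest and mouse C lay within the WT range. The log2 fold change was 0.47 (SE 0.25, 95% confidence interval −0.10 to 1.04; adjusted p = 0.320 from limma). It was 0.20 without Pik3cg-/- mouse A and 0.68 without mouse C. The other 8 Bcl2 probes gave mouse values between 5.20 and 7.23, and 2 of them, ILMN_2682162 and ILMN_2500078, were each detected on 1 WT array, so probe agreement could not be examined for Bcl2.

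Among the BH3-only genes, Bid encodes a protein that caspase-8 cleaves to carry the death receptor signal to mitochondria. ILMN_3161878 read 8.26, 7.91 and 8.39 in WT and 7.85, 7.56 and 7.60 in Pik3cg-/- mice. All 3 knockout mice lay below all 3 WT mice, the nearest pair being WT mouse B at 7.91 and knockout mouse A at 7.85. The means were 8.19 ± 0.25 and 7.67 ± 0.16 (SD, n = 3), with a log2 fold change of −0.52 (SE 0.18, 95% confidence interval −0.94 to −0.10; adjusted p = 0.162 from limma). The exact two-sided permutation p was 0.1, the smallest that 3 against 3 mice allow. The technical arrays of knockout mouse C were 7.07 and 8.13, which is wider than the difference between the groups. With the first technical array of each mouse alone the log2 fold change was −0.82 (adjusted p = 0.135 from limma), and with the second alone −0.22 (adjusted p = 0.656 from limma).

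The second Bid probe, ILMN_2757287, did not show that order. It read 6.81, 7.08 and 6.66 in WT and 6.61, 7.11 and 6.99 in Pik3cg-/- mice, with a log2 fold change of 0.06 (SE 0.19, 95% confidence interval −0.39 to 0.50; adjusted p = 0.902 from limma), and was detected on only 1 WT and 2 Pik3cg-/- arrays. The difference between both probes' changes was −0.58 (95% confidence interval −1.29 to 0.14; adjusted p = 0.526 from limma; exact two-sided permutation p = 0.2). Their estimates thus had opposite signs, as in 21.7% of all pairs, and across the 6 mice they correlated with r = −0.63 (rho = −0.54). The mean of both Bid probes had a log2 fold change of −0.23 (SE 0.15; adjusted p = 0.386 from limma).

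Bcl2l11 encodes BIM, the BH3-only protein that limits lymphocyte numbers. Of its 4 probes ILMN_3157568 was kept, detected on 3 of 6 WT and 4 of 6 Pik3cg-/- arrays. It read 7.02, 6.93 and 7.08 in WT and 7.87, 7.62 and 6.83 in Pik3cg-/- mice. Knockout mice A and B stood above the WT mice and mouse C below them, and the log2 fold change was 0.43 (SE 0.26, 95% confidence interval −0.16 to 1.02; adjusted p = 0.375 from limma). It was 0.21 without Pik3cg-/- mouse A and 0.74 without mouse C. The other 3 probes were detected on no array.

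**Figure D3:**
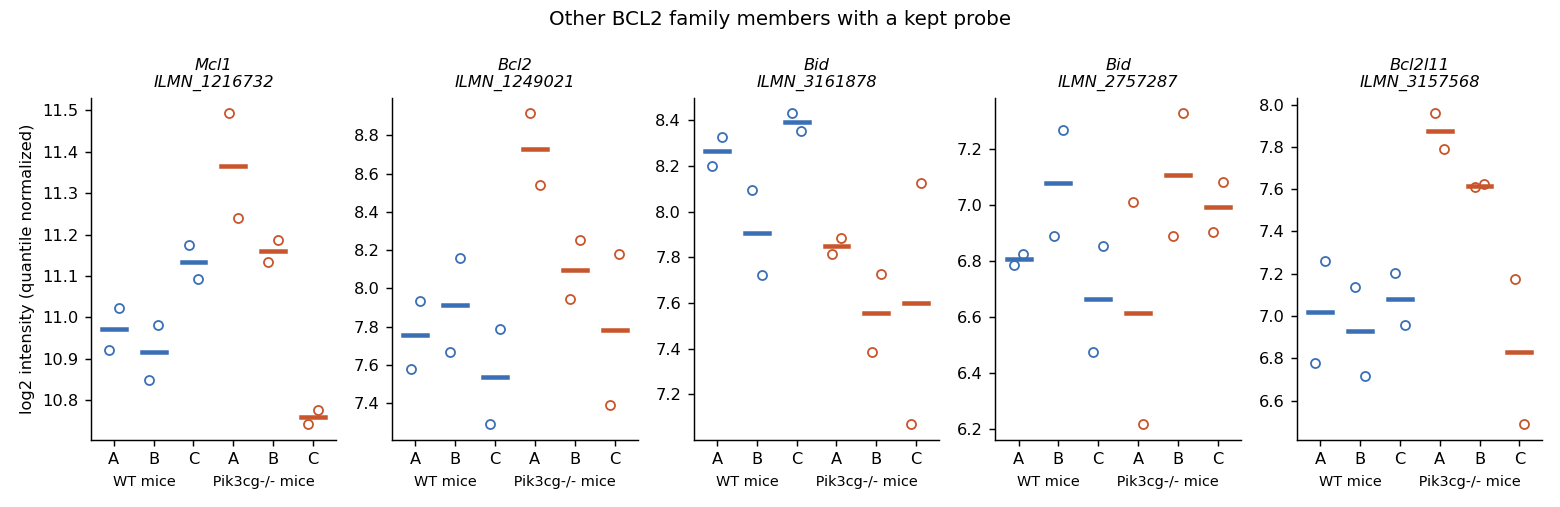
Log2 intensity of the kept probes of Mcl1, Bcl2, Bid and Bcl2l11 in each mouse (y axis, scaled separately for each panel; open circles are the 2 technical arrays, bars their mean; WT blue, Pik3cg-/- orange). The Bid probe ILMN_3161878 is the panel in which the mouse means of the genotypes do not overlap, from 7.91 to 8.39 in WT and from 7.56 to 7.85 in Pik3cg-/- mice.

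The effectors and Bad could not be compared. Bak1, whose product forms pores in the outer membrane and removes ageing platelets in mice when BCL-xL runs low, had 1 probe, ILMN_2945835, detected on no array (mouse values 5.53 to 6.05). The probe of Bad, ILMN_1216802, whose product links AKT signalling to BCL-xL, was likewise detected on no array (5.53 to 5.81). Bax, the other pore-forming effector, has no probe under its symbol in the annotation used here and was not analysed here. An undetected probe sets no level for its gene, so the balance of protectors and effectors was measured here only on the side of the protectors and of Bid and Bcl2l11.

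Pik3cg-/- mouse B stood above all WT mice for Bcl2l1 and also for Mcl1, Bcl2 and Bcl2l11, while mice A and C stood in opposite order. Taken from the WT mean, the mean of the 3 Bcl2l1 probes stood at 0.05, 1.67 and 2.49 in Pik3cg-/- mice A, B and C, while for Mcl1, Bcl2 and Bcl2l11 mouse A held the highest and mouse C the lowest value of the knockout group. Among the brightest kept probes of 3821 other genes, the 5 whose pattern over the 6 mice was most like ILMN_2698430 were Phospho1, a phosphatase of phosphocholine and phosphoethanolamine (r = 0.991), Scoc (r = 0.991), the translation elongation factor Eef2 (r = 0.990), the small GTPase Arf5 (r = 0.990) and Ahsa1, an activator of HSP90 (r = 0.988). Their log2 fold changes lay between 0.67 (Scoc) and 1.21 (Phospho1 and Eef2), and none passed the threshold. In WT mice Phospho1, Eef2 and Ahsa1 read only 6.41 to 7.07. That is about the level at which ILMN_2647885 (6.53 to 6.94) was detected on 1 of 6 WT arrays. Whether these genes too were kept only through the knockout arrays was not examined. The 5 most like Mcl1 were the mitochondrial ribosomal protein gene Mrps24 (r = 0.995), the proteasome subunit gene Psmb4 (r = 0.993), Tmem229b (r = 0.993), Gpr18 (r = 0.986) and Zfp212 (r = 0.985). These are descriptions over 6 mice, chosen as the highest of all such values from the same arrays.

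Because whole blood mixes cell types, fewer cells of a type and less RNA per cell cannot be told apart in these values. Most kept markers of red cells and reticulocytes stood on the same side as Bcl2l1. Of 12 listed markers 5 had a kept probe, and 4 of these 5 (Slc4a1, Tspan33, Trim10 and Sptb) were higher in every Pik3cg-/- than in every WT mouse, against 28.3% of all genes without overlap in either direction. The fifth, Alas2, the first enzyme of haem synthesis in red cells, had a log2 fold change of −0.01. Only Sptb, the spectrin beta chain, passed the threshold (log2 fold change 1.72, adjusted p = 0.00276 from limma). Epb42, Hemgn, Ermap, Rhag and Klf1 were not kept. The list was chosen with earlier results of these data known, and the authors had already listed Sptb, Trim10 and Tspan33 as raised in these mice. The 4 of 5 is thus a description. The median of the 5 markers stood 0.22, 0.28 and 0.80 above the WT mean in Pik3cg-/- mice A, B and C, and the log2 of their summed intensity ranged from 16.91 to 17.05 in WT and from 17.05 to 17.18 in Pik3cg-/- mice. Mouse C was highest for both Bcl2l1 and the red cell markers, whereas mouse A stood above the WT mice for the markers and inside their range for Bcl2l1. Across the 6 mice the mean of these markers correlated with that of the Bcl2l1 probes, ILMN_2647885 among them, with r = 0.76 (rho = 0.71), as a description.

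All 10 platelet markers were kept and had lower means in Pik3cg-/- mice, where 45.9% of all genes had a higher mean. Of the 10, 7 were without overlap (28.3% of all genes) and none passed the threshold. This list too was chosen with earlier results of these data known, so these counts are a description. The median of the platelet markers stood at −2.63 in mouse A, −0.84 in mouse B and −0.59 in mouse C. The log2 of their summed intensity ranged from 15.58 to 16.10 in WT and from 13.79 to 15.36 in Pik3cg-/- mice. The mouse with the lowest platelet markers, A, was thus the one with the lowest Bcl2l1 of its group, but over all 6 mice r was −0.03 (rho = −0.54). Of 11 neutrophil markers 8 were kept, 4 with a higher and 4 with a lower mean in Pik3cg-/- mice. The genotypes did not overlap for 3 of the higher and 2 of the lower ones, against 28.3% of all genes. The neutrophil medians, over markers that went both ways, were 0.31 in mouse A, −0.11 in B and −0.20 in C. Of 10 monocyte markers 7 were kept, with medians of −0.51, −0.71 and −0.74. Of 10 B cell, 10 T cell and 9 NK cell markers 6, 5 and 4 were kept, and their medians in single Pik3cg-/- mice ranged from −0.45 (B cells, mouse C) to 0.38 (NK cells, mouse A). Within the knockout group the medians of neutrophil, monocyte, B, T and NK cell markers were each highest in mouse A and lowest in mouse C, the order also seen for Mcl1, Bcl2 and Bcl2l11. The arrays of mouse A detected 5511 and 4596 probes, those of B 4176 and 4644 and those of C 3558 and 3696. How far this order follows the number of detected probes was not tested. The part of any of these cell types in the values of the BCL2 family genes was not tested.

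**Figure D4:**
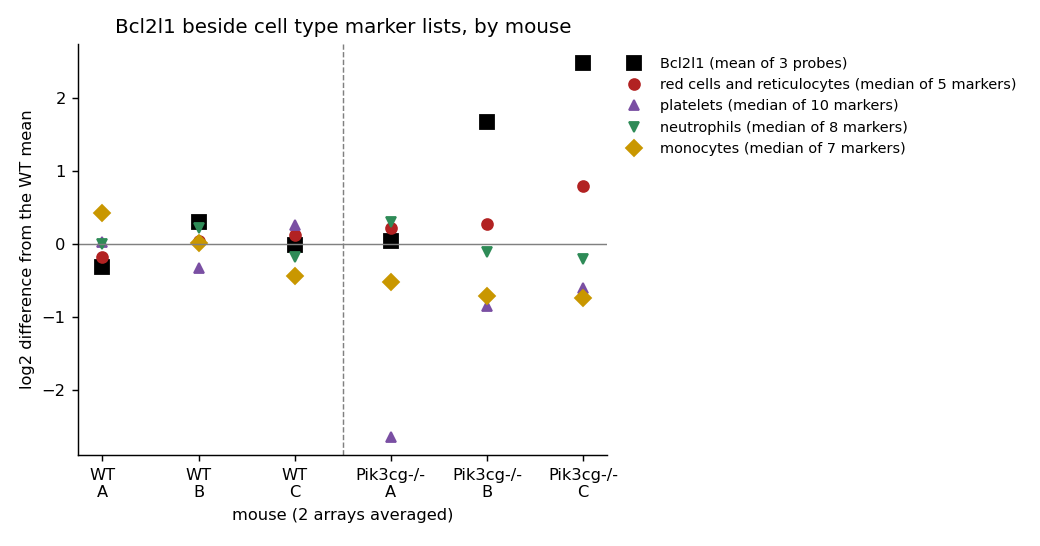
Log2 difference of each mouse from the WT mean (y axis) for the mean of the 3 Bcl2l1 probes (black squares) and the median of the kept markers of 4 blood cell types. Pik3cg-/- mice B and C stand at 1.67 and 2.49 for Bcl2l1 and at 0.28 and 0.80 for red cell markers, and mouse A at −2.63 for platelet markers.

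The rest of the intrinsic death pathway was read from 59 further genes, of which 55 had an annotated and 23 a kept probe. None of the 23 passed the threshold in limma, against 2.49% of all 3822 genes. In limma 7 had an unadjusted p under 0.05, against 20.9% of all genes. None passed in the methods' analysis of variance with the same adjustment, where only 3 of all 5498 kept probes passed, so that count says little. Over all genes 45.9% had a higher mean in Pik3cg-/- mice, and the median log2 fold change was −0.03. Of the 23, 4 had a higher and 19 a lower mean in Pik3cg-/- mice, with a median log2 fold change of −0.14. With scaling to the 75th percentile they were 2 and 21, with a median of −0.26 beside −0.20, and 3 passed (Cflar, Birc2 and Vdac1, all lower). With all 12 arrays and the mouse as a random block, which counts technical arrays as partly independent, 3 passed (Apaf1, Birc2 and Vdac1). With array quality weights, whose estimation did not converge, 9 passed. Of all 5498 kept probes 307 passed with scaling to the 75th percentile, 471 with the random block and 1761 with array quality weights. The genotypes did not overlap for 6 of the 23 genes, 1 higher and 5 lower, against 28.3% of all genes.

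Apaf1, which assembles with cytochrome c into the caspase-activating apoptosome, was the gene nearest the threshold. It read 8.68, 8.79 and 8.62 in WT and 9.27, 9.42 and 9.51 in Pik3cg-/- mice, without overlap, with a log2 fold change of 0.70 (SE 0.15, 95% confidence interval 0.35 to 1.06; adjusted p = 0.0526 from limma). It passed in the authors' log2 values (0.46, adjusted p = 0.0263 from limma) and not with scaling to the 75th percentile (0.50, adjusted p = 0.212 from limma). Over all alternatives its adjusted p ranged from 0.00125 to 0.214, and the low end came from array quality weights, whose estimation did not converge. The other bright genes of this list were lower without passing, namely the initiator caspase gene Casp2 (log2 fold change −0.54, no overlap) and Cflar, an inhibitor of caspase-8 activation (−0.95, with overlap). Of the inhibitors of apoptosis, Birc2, which encodes the ubiquitin ligase cIAP1, was the 1 gene of 8 with a kept probe. Its 2 kept probes gave −0.97 and −0.71 (adjusted p = 0.164 and 0.162 from limma), and the brighter read 10.76, 10.34 and 10.55 in WT and 8.68, 9.99 and 10.06 in Pik3cg-/- mice, lowest in mouse A.

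Of the outer membrane partners of BAX and BAK, the channel gene Vdac1 did not overlap between the genotypes (log2 fold change −0.70, adjusted p = 0.100 from limma), and Bag1, a co-chaperone that binds BCL2, and Tmbim6, an inhibitor of BAX-driven death, differed by 0.21 and −0.19. Of the genes upstream of the family, Mdm2, the ligase that restrains p53, and Gsk3b, a kinase that marks MCL1 for turnover, were lower without overlap (−0.35 and −0.42, adjusted p = 0.232 and 0.155 from limma), and the transcription factor gene Foxo1 differed by −0.07. Of 20 other BCL2 family genes 5 had a kept probe. The brightest were Bnip3l, which directs the removal of mitochondria from reticulocytes (log2 fold change −0.06), and Bcl2a1d and Bcl2a1b (both 0.06), near-identical copies whose probes may read each other's transcripts.

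**Figure D5:**
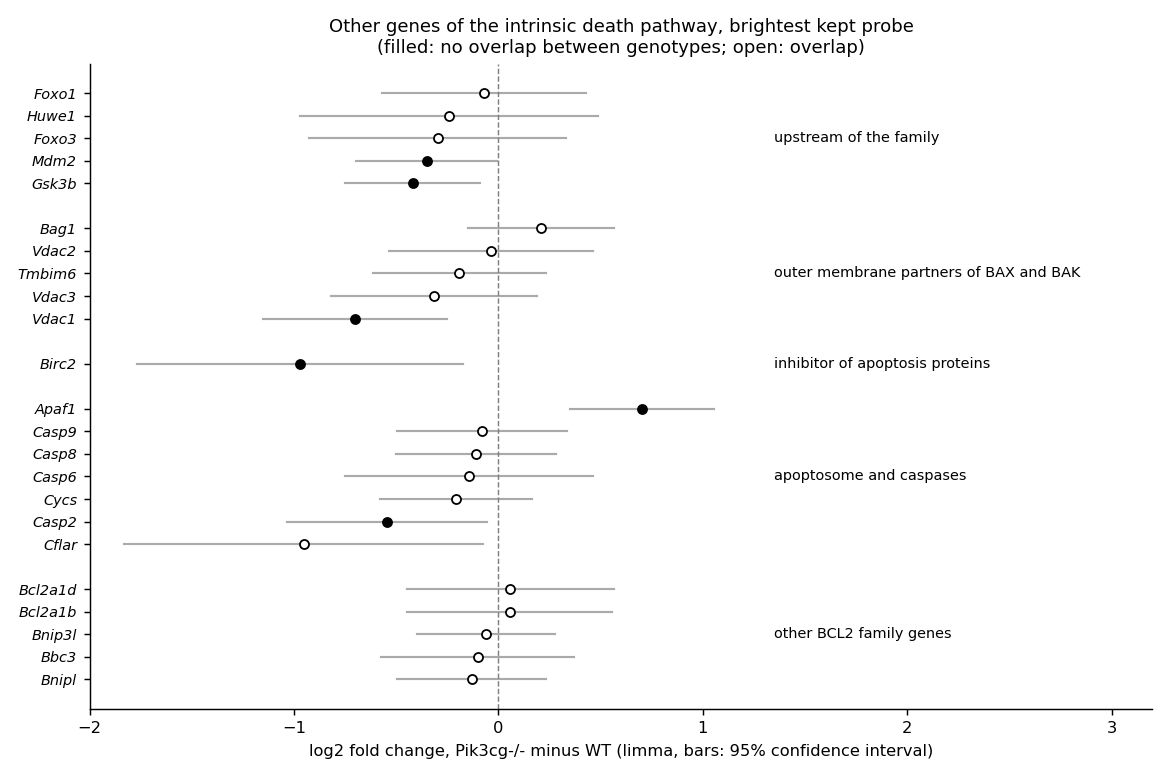
Log2 fold change of 23 other genes of the intrinsic death pathway, each by its brightest kept probe (x axis, Pik3cg-/- minus WT, n = 3 mice in each group; bars are 95% confidence intervals; filled circles mark genes whose mice do not overlap between genotypes). Apaf1 at 0.70 is the filled gene above 0, and Casp2, Birc2, Vdac1, Mdm2 and Gsk3b are the 5 filled genes below 0.

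The promoter sequences of the family were set beside these values. RefSeq (GRCm38.p6) gave 12 windows of 300 bases, from 250 before to 50 after an annotated start, for all 8 genes, 3 of them for Bcl2l1. They were searched on both strands for the letters read by GATA factors, the red cell and megakaryocyte regulators, and for those read by STAT factors. The GATA letters were AGATAA, also with T as the first base or with G as the last, and the STAT letters were TTCNNNGAA, which share no match with them. At least 1 GATA match was found in 2 of the 12 windows, 1 of Bcl2l1 and 1 of Bid, against 29.8% of all 32851 windows, and a STAT match in 0 of 12 against 8.3%. The Bcl2l1 window with matches is shown because it holds 2 matches, chr2:152828440-152828739 on the minus strand of GRCm38.p6, written 5′ to 3′ with the matches in capitals.
Bcl2l1 promoter: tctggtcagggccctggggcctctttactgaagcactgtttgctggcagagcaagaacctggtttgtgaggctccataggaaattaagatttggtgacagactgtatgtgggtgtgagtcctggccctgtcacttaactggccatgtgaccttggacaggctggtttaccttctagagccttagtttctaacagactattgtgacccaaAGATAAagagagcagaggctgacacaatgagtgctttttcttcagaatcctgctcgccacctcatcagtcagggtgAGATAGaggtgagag
A match describes these letters only. Gata1, Stat5a and Stat5b had no kept probe in these arrays.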

How the data were processed

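RNA from whole blood of 3 WT and 3 Pik3cg-/- mice was hybridized to 12 arrays of the type Illumina MouseWG-6 v2, 2 for each mouse. The deposited intensity values are mean bead signals by probe and array, background subtracted but not normalized between arrays. A detection p-value by probe and array comes with them, per the file headers. The log2 values are those the authors obtained with lumi after subtracting background, stabilizing the variance and quantile normalizing, and served here only as an alternative. The sources used here do not give software versions, slides or scan dates.

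Signals were processed with limma 3.58.1 in R 4.3.3. Its function neqc corrected background from the detection p (offset 16), quantile normalized and took log2. The filter for detected probes (p under 0.01, 3 or more of the 12 arrays) retained 5498 of 45281. The platform annotation gave 1 gene for 34885 probes, several for 18 and none for 10378, and 883 retained probes have no gene name here. After averaging the 2 arrays of a mouse, genotypes were compared with lmFit and eBayes, with Benjamini-Hochberg adjustment over all retained probes and a threshold of 0.05. For genes outside the family the brightest retained probe was taken. Unequal change was tested with limma on the within-mouse difference between 2 probes of a gene, over all such pairs. The limma steps were tested on simulated data. The p-values of the main comparison weigh the difference between group means against the spread between mice, with 3 mice in each group. For that spread eBayes also draws on all retained probes. The number of mice limits the precision.

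The members, lists, tests and alternatives were chosen with earlier results of these data known. All probes of the 8 genes are named. Some listed marker genes are not reported here. Of the other pathway genes, the 3 brightest of each list are named, as are those past the threshold, and of the most alike genes the 5 with the highest r. Alternatives changed the background (no normal-exponential model, offset 50), the normalization (cyclic loess, 75th percentile, the authors' log2 values), the filter (none, or 6 arrays), the use of technical arrays (the first, the second, or all 12 with mouse as random block), the test (the methods' analysis of variance, array quality weights, a trended robust prior, the letters A to C as a block), the probes (mean of a gene's probes) and the mice (each left out). Plots were made in Python 3.11.15 with matplotlib 3.10.9.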

Additional observations from a re-analysis of the deposited data

How the results depend on the processing

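Of 161 log2 fold changes of the 8 kept probes under the alternatives, 144 kept their direction and stayed short of the threshold, 11 kept it and passed, and 6 reversed. The reversals concern values near 0. Mcl1 (0.09) went to −0.107 with 75th percentile scaling, and with 1 mouse left out it ranged from −0.0469 (without Pik3cg-/- mouse A) to 0.257 (without Pik3cg-/- mouse C). The Bid probe ILMN_2757287 (0.06) went to −0.0592 with 75th percentile scaling and to −0.107 with the second technical array alone, and with 1 mouse left out it ranged from −0.0462 (without Pik3cg-/- mouse B) to 0.201 (without Pik3cg-/- mouse A), with −0.0374 without WT mouse C. The number of these probes past the threshold was 0 in the chosen analysis, where 150 of all 5498 kept probes passed. It was 1 with 75th percentile scaling (307 of all kept probes) and 2 with all 12 arrays and the mouse as a random block (471). That fit takes 1 correlation (0.36) between the arrays of a mouse for all probes, so technical arrays count as partly independent. The 2 were ILMN_2698430 and ILMN_2742557, with an SD of 1.06 and 1.14 between knockout mice and 0.19 between their technical arrays. With array quality weights, whose estimation stopped before it converged, 5 of the 8 passed (1761). The number of the 8 probes past the threshold ranged from 0 to 3 when 1 mouse was left out. The 3 are the Bcl2l1 probes without Pik3cg-/- mouse A, where 344 of all 5498 kept probes passed. Of these 3, ILMN_2647885 was kept only through the knockout arrays.

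Over all probes the 150 calls became 307 with 75th percentile scaling (67 higher and 240 lower), 86 without a filter, 83 with the first technical array alone, 471 with the random block, 3 with the methods' analysis of variance, 1761 with array quality weights and 259 with a trended robust prior, and 40 to 344 with 1 mouse left out; the causes were not tested. The 5 unequal probe pairs became 9 in the authors' log2 values, 41 without a filter, 22 with the random block and 13 with array quality weights, and 1 to 11 with 1 mouse left out (11 without Pik3cg-/- mouse A). A replicate block on the letters A to C gave 111 calls over all probes, 0 of the 8 and 3 unequal pairs; the sources do not pair the letters, and mice of the same letter deviated together with r = 0.18, −0.18 and 0.18. Signal over background limits ILMN_2647885, ILMN_2742557, ILMN_2757287, the Bcl2l11 probe ILMN_3157568 and the 14 probes that were not kept.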
